A study of Mus musculus with 6 samples.

Results

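The 43 genes described here encode the machinery that copies DNA in S phase, with the enzymes that supply its nucleotides and the regulators of entry into it. They were chosen by symbol in a table of 46078 genes, and all 43 were present and passed the filter on low counts. They were measured by RNA sequencing of epithelial cells from the proximal small intestine, sorted as EpCam+ and CD45- cells from untreated C57BL/6JRj mice. The young group held 3 mice of 2 to 3 months and the aged group 3 mice of 20 to 22 months, taken as 1 library per mouse from the series design. The labels give no sex, batch or pairing, and the replicate numbers are only names.

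In the gut epithelium, DNA is copied in the crypts, where stem cells and their transit-amplifying daughters divide. The cells that leave for the villus stop dividing. Before S phase, the origin recognition complex with Cdc6 and Cdt1 loads the ring of Mcm proteins onto DNA, a step called licensing. Kinases then let Cdc45 and the GINS complex join the ring and turn it into the moving helicase. Primase and polymerase alpha start each strand, the clamp loader RFC places the Pcna clamp, and polymerases delta and epsilon extend. Fen1 and Lig1 trim and join the lagging strand pieces. Many of these genes are textbook targets of the E2F transcription factors, which are held in check by the retinoblastoma protein until cyclin-dependent kinases release them.

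No replication gene passed the test between age groups, and the differences were small. Of the 43 genes, 0 were called higher and 0 lower in aged mice by edgeR's quasi-likelihood test, at a p adjusted over all genes (Benjamini-Hochberg) of under 0.05. Of the 14923 genes tested, 1.41% were called, 0.623% higher and 0.784% lower. At an unadjusted p below 0.05 there were 2, Fen1 and Ccne1, against 9.23% of all tested genes, and DESeq2 and limma-voom each called 0 as well. The median log2 fold change, aged over young, was 0.08 over the 43 genes and 0.01 over all tested genes. The values lay above 0 in 37 of 43 (36 with DESeq2's size factors or upper quartile scaling), against 51.8% of all tested genes. These 37 are not separate observations, because all genes come from the same 6 libraries. The age groups overlapped in every one of the 43, whereas they did not overlap in 13.8% of all tested genes (6.30% higher and 7.49% lower in aged mice). In bulk RNA, a different share of dividing cells and a different level of RNA per dividing cell cannot be told apart.

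The 6 libraries held 41479573 to 58989166 counts, and between 134587 and 221836 of these fell on the 43 genes. The lowest single value was 329 counts, for Ccne2 in young replicate 3. Levels are given in CPM, the depth-scaled count after TMM normalisation. Epcam, the marker sorted for, stood at 1664, 1635 and 1669 CPM in the young and 1506, 1502 and 1523 CPM in the aged libraries. Every aged library thus lay below every young one, which held for no other of the 7 epithelial markers and for 7.49% of all tested genes. Of the 7 markers 0 were called. Leukocyte markers were near 0: the summed level of 20 such genes was 7.68 to 9.89 CPM in young and 7.39 to 10.2 CPM in aged libraries, S100a8 was at 0 in all 6, and Ptprc, which encodes CD45, reached at most 0.287 CPM. The 13 stromal and vascular markers summed to 1.89 to 3.44 CPM in young and 2.79 to 3.07 CPM in aged libraries, with Kdr, Cdh5 and Sox10 at 0.

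The promoters of these genes were read for the E2F motif, since many of the genes are textbook targets of those factors. A promoter window is 300 bases, from 250 before the transcript start to 50 after it, taken from RefSeq on GRCm38.p6. Of the 43 genes, 35 had a window (39 windows in all, as some genes have several starts). Ccne2, Gins1, Gins2, Gins4, Mcm4, Pole, Prim2 and Rfc2 had none. All windows of Cdc6, Dut, E2f1 and Mcm7 lay wholly inside the bounds of the gene in GENCODE M21. For these the sequence at the outermost gene start was therefore not read. The letters searched on both strands were TTTCCCGC, TTTGGCGC, TTTCGCGC and TTTGCCGC, and matches that overlap were counted separately. At least 1 match was found in 13 of 35 genes (37.1%), against 2.60% of the 27025 genes with a window and 4.49% of the 10478 tested genes with one. Of the 35 other replication factors with a window, genes of the same process that are not among the 43, 11 (31.4%) held a match, and the difference from the 43 was not tested. The 5 genes with at least 2 matches in 1 window were Mcm3, Mcm5, Mcm6, Mcm7 and Rfc3, of which 4 encode subunits of the helicase ring. Their windows are shown with the matches in capitals, 5′ to 3′ on the strand of the gene: Mcm3 at chr1:20820263-20820562 on the minus strand, Mcm5 at chr8:75109259-75109558 on the plus strand, Mcm6 at chr1:128359656-128359955 on the minus strand, Mcm7 at chr5:138171834-138172133 on the minus strand and Rfc3 at chr5:151651159-151651458 on the minus strand.
Mcm3: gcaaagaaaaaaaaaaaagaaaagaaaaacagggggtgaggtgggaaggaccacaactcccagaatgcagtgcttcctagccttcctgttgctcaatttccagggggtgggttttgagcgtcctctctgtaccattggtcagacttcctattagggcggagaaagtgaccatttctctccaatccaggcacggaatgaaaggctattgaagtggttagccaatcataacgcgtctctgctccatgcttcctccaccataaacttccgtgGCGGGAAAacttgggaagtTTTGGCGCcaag
Mcm5: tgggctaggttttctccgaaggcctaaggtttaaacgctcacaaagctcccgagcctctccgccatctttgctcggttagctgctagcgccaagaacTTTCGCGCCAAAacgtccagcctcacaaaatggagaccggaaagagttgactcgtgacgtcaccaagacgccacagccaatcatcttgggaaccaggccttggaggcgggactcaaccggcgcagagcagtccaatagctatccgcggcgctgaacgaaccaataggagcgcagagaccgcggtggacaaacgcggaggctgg
Mcm6: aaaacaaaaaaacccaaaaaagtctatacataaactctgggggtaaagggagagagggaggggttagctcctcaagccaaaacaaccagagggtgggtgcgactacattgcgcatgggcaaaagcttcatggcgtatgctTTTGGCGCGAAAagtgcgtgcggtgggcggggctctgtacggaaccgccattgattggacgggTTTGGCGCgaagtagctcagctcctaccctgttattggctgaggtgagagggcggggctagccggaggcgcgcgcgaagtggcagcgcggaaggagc
Mcm7: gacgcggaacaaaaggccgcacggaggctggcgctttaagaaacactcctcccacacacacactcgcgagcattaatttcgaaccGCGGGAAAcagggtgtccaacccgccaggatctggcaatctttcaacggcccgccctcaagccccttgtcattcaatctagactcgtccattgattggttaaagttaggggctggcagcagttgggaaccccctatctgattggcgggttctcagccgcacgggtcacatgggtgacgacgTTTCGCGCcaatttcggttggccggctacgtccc
Rfc3: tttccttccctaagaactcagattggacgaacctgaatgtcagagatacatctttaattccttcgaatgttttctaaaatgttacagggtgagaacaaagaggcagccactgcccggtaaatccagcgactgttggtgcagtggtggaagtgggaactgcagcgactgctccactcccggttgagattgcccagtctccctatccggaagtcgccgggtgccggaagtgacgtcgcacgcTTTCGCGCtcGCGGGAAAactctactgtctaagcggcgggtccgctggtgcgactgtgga

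In the Mcm6 window the first bases of the matches lay at -110, -106 and -47 relative to the transcript start, and the first pair overlap. The pair in Mcm5, at -153 and -149, also overlap, so that 1 stretch is read on both strands. In Mcm3 both matches lie after the start, at 19 and 38. Rfc3 has its matches at -10 and 0, across the start itself. Mcm7 has a second RefSeq window without a match, and its match at 16 shares a base with a CCAAT, the only such overlap among the genes. A match of letters is a description of the sequence and not a measured binding site.

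A pair of other motifs served for comparison. The letters CCAAT, in either orientation, were found in 60.0% of the replication genes with a window, against 42.8% of the tested genes and 41.1% of all genes with one. TTTGAA, the core of the cell cycle homology region that is known from mitotic promoters, was found in 4 of the 35 replication genes (11.4%), in 14.1% of the tested genes and in 20.2% of all genes with a window. Of 21 mitosis genes with a window, 71.4% held TTTGAA and 4.76% an E2F match. The median log2 fold change was 0.09 in the 13 replication genes with an E2F match and 0.08 in the 22 without, and the median spread within age groups (SD of log2 CPM) was 0.13 and 0.14. The difference between these subsets was not tested.

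Levels per exon length were highest for Mcm6 and Mcm5, a pair of subunits of the helicase ring, and the other ring genes ranked between 4 and 13 of the 43. Values in this paragraph are CPM per kilobase of exon (mean ± SD over all 6 libraries), with exon lengths from GENCODE M21, which counts every annotated exon and so understates genes with long rare exons. The median of the 43 genes was 13.4, that of the tested genes with a length was 5.16, and 39 of the 43 lay above the latter. Mcm6 had the highest mean level (56.5 ± 4.62), followed by Mcm5 (54.9 ± 5.64), a gap smaller than either SD. Fen1 (46.8 ± 6.69), Mcm3 (46.4 ± 4.24) and Pcna (44.8 ± 3.46) came next and also lay within 1 SD of each other. Within the ring, Mcm7 (36.5 ± 2.57) and Mcm4 (33.6 ± 3.12) stood lower, and Mcm2 (26.2 ± 2.05) lowest. The 4 GINS subunits spread from Gins4 (21.6 ± 1.22) through Gins1 (10.7 ± 1.03) and Gins2 (8.48 ± 0.920) to Gins3 (3.88 ± 0.506). These orders depend on the exon lengths, 6956 bases for Mcm2 against 3752 for Mcm3, and 4097 for Gins2 against 1349 for Gins4. Before division by length, mean CPM in young and aged mice was 181 and 185 for Mcm2, above 168 and 180 for Mcm3. It was 32.7 and 36.8 for Gins2, above 29.2 and 29.0 for Gins4. At the bottom were Orc1 (4.12 ± 0.652), Gins3 and the cyclin gene Ccne2 (3.17 ± 0.715).

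**Figure D1:**
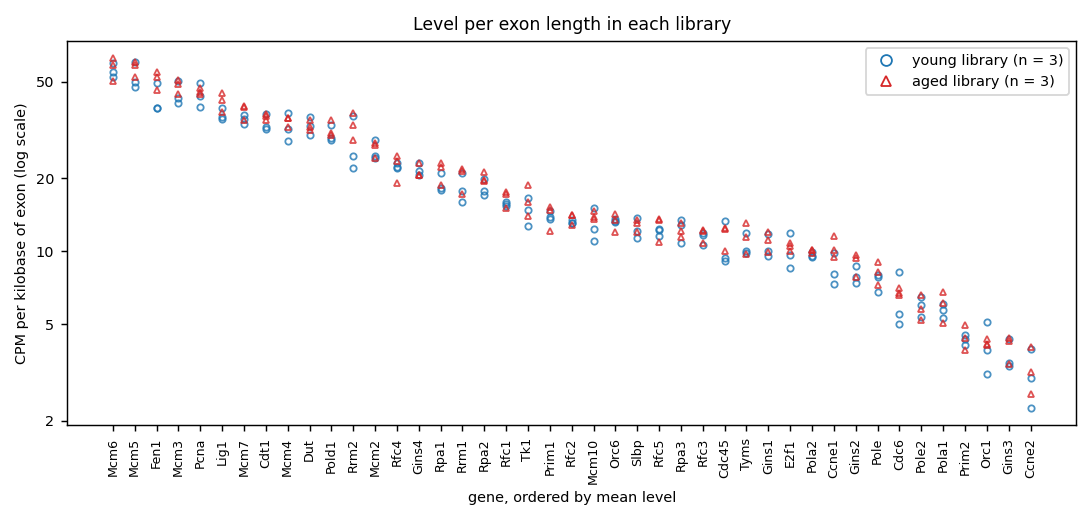
Level of each of the 43 genes in CPM per kilobase of exon (vertical axis, log scale), with genes ordered by their mean over 6 libraries; circles are the 3 young and triangles the 3 aged libraries. The order runs from Mcm6 to Ccne2, and the young and aged symbols overlap for every gene.

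Among the licensing factors, Mcm2 (ENSMUSG00000002870, chromosome 6, 88883474 to 88898780, GRCm38), a subunit of the ring, stood at 169, 201 and 172 CPM in the young and 169, 190.1 and 194 CPM in the aged libraries. Young replicate 2 was the highest of the 6 and the other young libraries lay beside aged replicate 1. Its log2 fold change was 0.03 ± 0.09 (SE, edgeR adjusted p = 0.969), with a 95% interval of -0.17 to 0.24. Mcm6, the most abundant member per length, measured 257, 278 and 245 CPM in the young and 235, 274 and 292 CPM in the aged libraries (log2 fold change 0.04, edgeR adjusted p = 0.963). Mcm5, another subunit, measured 199.8, 240.1 and 189.7 CPM in the young and 209, 235 and 242 CPM in the aged libraries. This was the largest difference of the 10 licensing genes (log2 fold change 0.12 ± 0.10, edgeR adjusted p = 0.829), and young replicate 2 still lay above 2 of the 3 aged libraries. Mcm3, Mcm4 and Mcm7 had log2 fold changes of 0.11, 0.08 and 0.11.

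Of the factors that load the ring, Cdc6 and Orc1 varied more among the young mice than between the ages. Cdc6, an ATPase that is made anew for each round of licensing, stood at 28.9, 43.1 and 26.3 CPM in the young and 35.3, 36.8 and 34.4 CPM in the aged libraries. The young libraries alone spanned a wider range than all aged ones, which lay within it. The CV was 27.6% in young, the highest of the 43 genes, and 3.39% in aged mice. Orc1, the subunit of the origin recognition complex that is regulated in the cycle, showed the same layout with 13.6, 17.8 and 10.8 CPM in the young and 14.4, 14.3 and 15.1 CPM in the aged libraries. Orc6, another subunit, was almost flat in young mice (33.6, 33.1 and 32.6 CPM in the young and 29.7, 35.3 and 33.1 CPM in the aged libraries), with a young CV of 1.62%, the lowest of the 43. Cdt1, which brings the ring to the origin and is destroyed once S phase begins, had a log2 fold change of 0.09. Adjusted p-values of the 10 licensing genes lay between 0.790 and 0.980 (edgeR).

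Of the 6 genes that activate the helicase, 0 passed the test. Gins2 measured 32.1, 30.4 and 35.6 CPM in the young and 32.2, 39.7 and 38.5 CPM in the aged libraries, the largest difference of this group (log2 fold change 0.17 ± 0.10, edgeR adjusted p = 0.741). Its lowest aged library lay among the young. Of its exon bases, 67.3% overlap Gse1 on the opposite strand, and the strand setting of the counting is not given in the sources used here. Gse1 itself stood at 133 to 139.9 CPM in young and 138 to 166 CPM in aged libraries. Gins4, the most abundant subunit per length, measured 31.1, 27.8 and 28.9 CPM in the young and 27.8, 31.3 and 27.9 CPM in the aged libraries (log2 fold change -0.01). Cdc45, the helicase cofactor, stood at 33.0, 46.8 and 32.0 CPM in the young and 35.1, 43.9 and 43.1 CPM in the aged libraries. It showed 3 high libraries, young replicate 2 and aged replicates 2 and 3, and 3 low ones. Mcm10, which helps to activate the helicase, had a log2 fold change of 0.13, Gins3 of 0.12 and Gins1 of 0.07.

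Among the polymerase and primase genes, Pola2 was measured with the smallest spread within age groups of the 43. This accessory subunit of polymerase alpha stood at 79.3, 82.3 and 78.2 CPM in the young and 81.8, 83.8 and 84.3 CPM in the aged libraries. The SD of its log2 CPM within age groups was 0.0309, the lowest of the 43, and its 95% interval for the fold of aged over young ran from 0.942 to 1.15. Pold1, the catalytic subunit of polymerase delta and the most abundant of this group per length, measured 139.9, 161 and 143 CPM in the young and 150.0, 169 and 147 CPM in the aged libraries (log2 fold change 0.07, edgeR adjusted p = 0.893). Pole, the catalytic subunit of polymerase epsilon, had the largest difference of the 7 genes, with 87.3, 88.8 and 75.6 CPM in the young and 81.1, 92.0 and 100.5 CPM in the aged libraries (log2 fold change 0.12 ± 0.10, edgeR adjusted p = 0.827). Its accessory subunit Pole2 had the lowest value of all 43 (log2 fold change -0.03 ± 0.12). The primase subunits Prim1 and Prim2 had log2 fold changes of -0.0016 and 0.04, and Pola1, the catalytic subunit of polymerase alpha, of 0.07.

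Pcna (ENSMUSG00000027342, chromosome 2, 132249162 to 132253314), the sliding clamp, stood at 105, 118 and 94.0 CPM in the young and 107, 109 and 113 CPM in the aged libraries. The 3 aged libraries lay inside the young range (log2 fold change 0.05 ± 0.09, edgeR adjusted p = 0.932), and the 95% interval of the fold ran from 0.901 to 1.19. The 5 clamp loader genes were closely matched. Rfc1, the large subunit, measured 93.9, 96.1 and 92.3 CPM in the young and 90.4, 105 and 103 CPM in the aged libraries and had the largest log2 fold change of the group, 0.08 ± 0.08. The small subunits had log2 fold changes of 0.05 (Rfc2), 0.04 (Rfc3), -0.0012 (Rfc4) and 0.07 (Rfc5). The intervals of the folds in this group reached no lower than 0.848 and no higher than 1.22.

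Fen1 (ENSMUSG00000024742, chromosome 19, 10199132 to 10204169), the flap nuclease of the lagging strand, had the smallest p of the 43 genes. It stood at 94.7, 119.7 and 94.5 CPM in the young and 112, 133 and 127 CPM in the aged libraries. Aged replicate 1 lay below young replicate 2, and the other aged libraries lay above all young ones. The log2 fold change was 0.27 ± 0.11 (95% interval 0.02 to 0.51), with an unadjusted p of 0.0380 and an adjusted p of 0.478 in edgeR. Most of its exon bases (78.8%) overlap the antisense gene Gm10143, which held at most 0.317 CPM. Tmem258, also on the opposite strand, overlaps 5.37% of them and stood at 75.0 to 80.7 CPM in young and 74.0 to 79.0 CPM in aged libraries. As for Gins2, the strand setting of the counting is not given, and the part of these overlaps in the Fen1 values was not tested. Lig1, the ligase that seals the same nicks, measured 153, 149.9 and 166 CPM in the young and 160.0, 179.9 and 192 CPM in the aged libraries (log2 fold change 0.18 ± 0.08, edgeR adjusted p = 0.604). The subunits of RPA, which covers single-stranded DNA, had log2 fold changes of 0.16 (Rpa1), 0.14 (Rpa2) and -0.02 (Rpa3).

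All 5 nucleotide supply genes had log2 fold changes above 0, between 0.00093 and 0.26, and none passed the test. Rrm2, the regulated subunit of ribonucleotide reductase, which makes deoxyribonucleotides, stood at 68.2, 101 and 61.3 CPM in the young and 80.1, 103 and 92.0 CPM in the aged libraries. Young replicate 2 matched the highest aged libraries, and the other young libraries lay below all aged ones. The log2 fold change was 0.26 ± 0.18 (edgeR adjusted p = 0.807). The upper limit of its 95% interval, 0.68 on the log2 scale, was the highest of the 43. Without young replicate 2 the adjusted p was 0.0848, the lowest for any replication gene under any alternative. Its partner Rrm1 measured 195, 231 and 176 CPM in the young and 189, 236 and 239 CPM in the aged libraries (log2 fold change 0.14). Tk1, the salvage kinase for thymidine, ran the other way in young replicate 2, with 76.6, 65.9 and 86.3 CPM in the young and 72.4, 82.6 and 97.5 CPM in the aged libraries. Dut, which clears dUTP, was the most abundant of these genes per length and had a log2 fold change of 0.00093 (95% interval -0.19 to 0.19), and Tyms, which makes the thymidine nucleotide, of 0.11.

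Ccne1 (ENSMUSG00000002068, chromosome 7, 38097984 to 38107534), which encodes cyclin E1, the partner of the kinase that starts S phase, had the largest difference of the 43 genes. It stood at 21.4, 26.2 and 19.5 CPM in the young and 25.2, 27.1 and 30.9 CPM in the aged libraries. Only young replicate 2 reached into the aged range. The log2 fold change was 0.31 ± 0.13 (95% interval 0.02 to 0.60), with an unadjusted p of 0.0399 and an adjusted p of 0.490 in edgeR. Ccne2, its paralogue, was the least abundant member per length and the least precise, with 10.5, 13.8 and 7.90 CPM in the young and 9.04, 11.1 and 14.1 CPM in the aged libraries (log2 fold change 0.09 ± 0.22). Of the Ccne2 exon bases, 17.4% overlap Ints8 on the opposite strand, which stood at 32.5 to 45.3 CPM in young and 33.9 to 39.5 CPM in aged libraries. The part of this overlap in the low level of Ccne2 was not tested. E2f1 (ENSMUSG00000027490, chromosome 2, 154559407 to 154569892), an activating E2F factor, stood at 26.9, 37.4 and 30.4 CPM in the young and 33.1, 31.6 and 34.3 CPM in the aged libraries. The aged values lay within the young range (log2 fold change 0.06 ± 0.12, edgeR adjusted p = 0.942).

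Slbp encodes the protein that binds the stem-loop of histone messenger RNAs, whose supply is tied to DNA synthesis. It measured 73.6, 83.2 and 68.7 CPM in the young and 73.2, 79.6 and 82.1 CPM in the aged libraries (log2 fold change 0.06 ± 0.09, edgeR adjusted p = 0.922). The histone genes it serves mostly lack poly(A) tails, and the libraries were made from poly(A) RNA. The 71 genes of the histone clusters summed to 96.4 to 118 CPM in young and 95.8 to 111 CPM in aged libraries. Most of the list lay near 0: 61 of the 71 had a mean under 1 CPM, and 9 of the 71 were at 0 in all libraries. Of the 71, 40 were tested, 0 were called, and the median log2 fold change of those tested was 0.07.

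**Figure D2:**
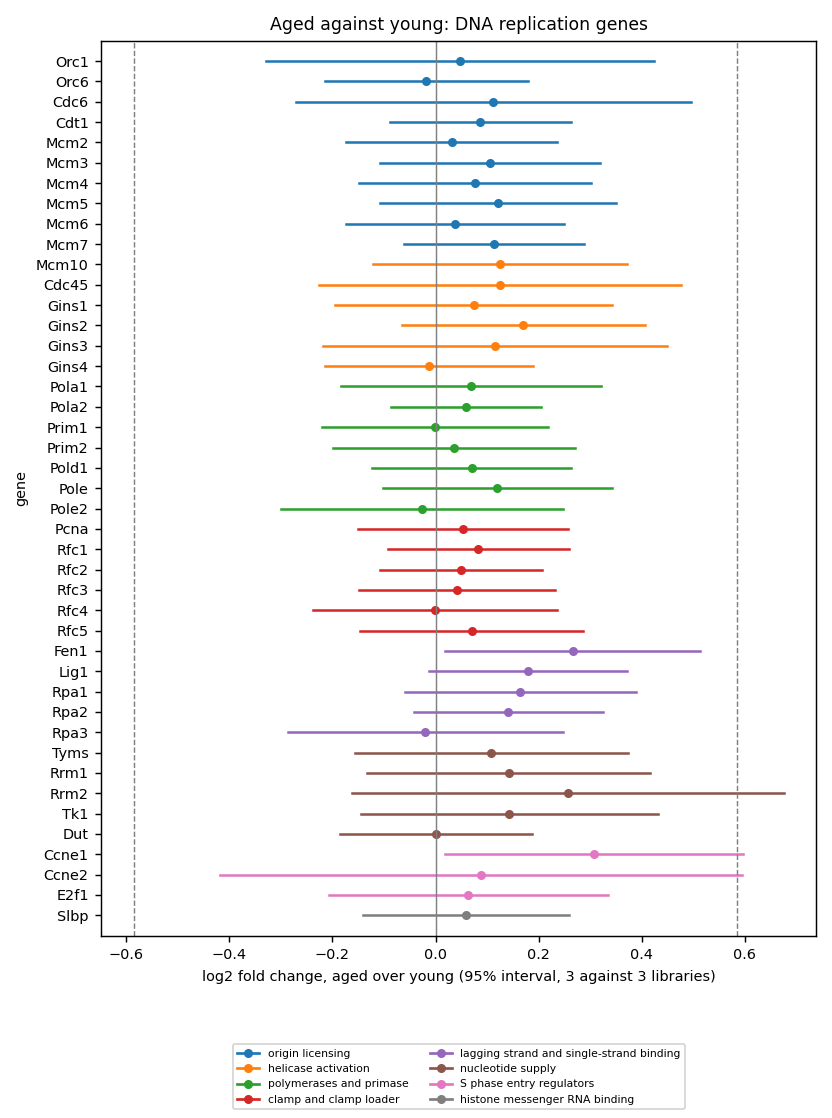
Log2 fold change of aged over young (points) with its 95% interval (lines) for the 43 genes, coloured by role group, from 3 against 3 libraries; dashed lines mark a 1.5-fold difference in either direction. The intervals of 41 genes include 0, and those of Fen1 and Ccne1 begin at 0.02.

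The intervals limit how large a difference these libraries leave room for. The 95% interval of the log2 fold change included 0 in 41 of 43 genes. It lay within a 1.5-fold difference in either direction in 40 genes, all but Rrm2, Ccne1 and Ccne2, and within 2-fold in all 43. The estimated fold itself lay within 1.1-fold of no difference in 34. A p above the threshold does not show that the levels were equal.

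**Figure D3:**
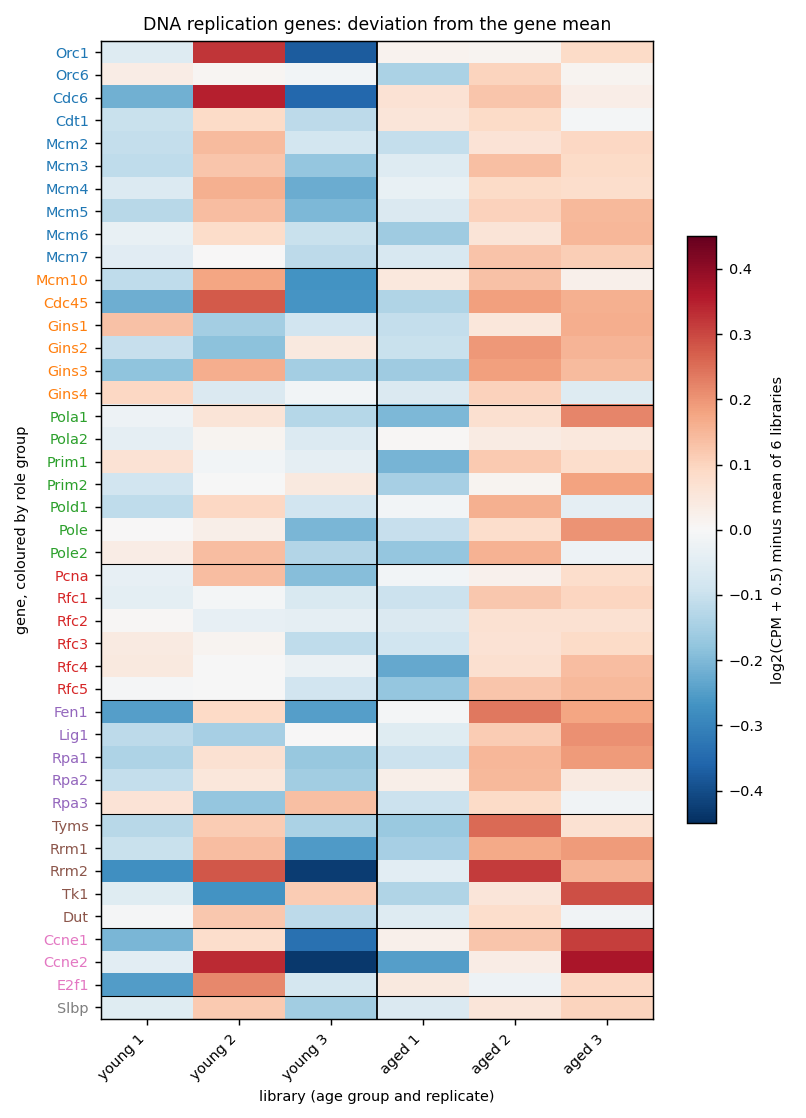
Deviation of log2(CPM + 0.5) from the mean of the 6 libraries for each gene (rows, names coloured by role group) in each library (columns, young left and aged right of the line). Young replicate 2 and aged replicates 2 and 3 are above the gene mean for most genes. Young replicates 1 and 3 and aged replicate 1 are below it for most.

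As a whole, the genes differed more between libraries of 1 age than between the ages. As the mean deviation of log2 CPM from each gene's mean over the 6 libraries, the 43 genes stood at -0.07, 0.07 and -0.14 in the young and -0.08, 0.11 and 0.11 in the aged libraries. Young replicate 2 thus lay with aged replicates 2 and 3, and aged replicate 1 with young replicates 1 and 3. Young replicate 2 was the highest young library in 31 of 43 genes (72.1%, against 39.4% of all tested genes). Young replicate 3 was the lowest young library in 32 (74.4%, against 33.6%), and aged replicate 1 the lowest aged library in 37 (86.0%, against 33.5%). Young replicate 2 highest among the young together with aged replicate 1 lowest among the aged occurred in 25 genes (58.1%), against 13.6% of all tested genes. The SD of the mean deviation was 0.107 among young and 0.112 among aged libraries, and the group means differed by less than either SD, at -0.05 and 0.05. Young replicate 2 and aged replicate 3 were also the most deeply sequenced libraries (58989166 and 55670388 counts), while aged replicate 2 held 45328055 counts. The part of depth in the pattern was not tested.

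The differences between libraries were widest in the 3 regulators of S phase entry, with mean deviations of -0.17, 0.21 and -0.28 in the young and -0.06, 0.05 and 0.26 in the aged libraries. The clamp and clamp loader genes differed little among the young libraries (0.00041, 0.02 and -0.09 in the young and -0.11, 0.08 and 0.10 in the aged libraries). The lagging strand and single-strand binding genes differed still less there, at -0.11, -0.02 and -0.09 (SD among young libraries 0.0452, against 0.0560 for the clamp group). By single genes, Ccne2, Rrm2, Cdc6, Orc1 and Cdc45 had the largest spread within age groups (SD of log2 CPM 0.348, 0.293, 0.266, 0.248 and 0.246), and Pola2 and Rfc2 the smallest. The median spread of the 43 genes, 0.139, equalled that of all tested genes to 3 digits. The sets differ in level, as 0 of the 43 but 2589 of the 14923 tested genes had a mean under 1 CPM. Genes of like level were not compared. In 6 genes young replicate 2 was instead the lowest young library: Gins1, Gins2, Gins4, Lig1, Rpa3 and Tk1.

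Relative to the mean of the other 42 members in the same library, the age groups separated for Fen1 and Ccne1 only. On this log2 scale Fen1 went from -0.09 in young to 0.09 in aged libraries, and Ccne1 from -0.11 to 0.11. Against the mean of the members, 12.0% of all tested genes separated by age, so 2 of 43 is no more than the background share.

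The remaining replication genes gave similar values. Of 42 other replication factors (the remaining ORC subunits, kinase Cdc7, fork protection, chromatin assembly and further polymerase subunits), 0 were called, 32 had log2 fold changes above 0, and the median was 0.08. The most abundant were Ssrp1, a histone chaperone subunit, with 324 ± 13.6 CPM in the young and 344 ± 24.1 CPM in the aged mice (SD, n = 3 each), and Dnmt1, which copies DNA methylation onto the new strand, at 297 ± 9.90 and 326 ± 23.8 CPM. Of 21 further nucleotide supply genes 0 were called (median 0.03), and their most abundant members were the folate enzyme gene Mthfd1 and the purine synthesis gene Atic, with log2 fold changes of 0.06 and 0.04. Of 25 genes of the S phase checkpoint and fork repair 0 were called (median 0.07), and the mismatch repair gene Msh6 had a log2 fold change of 0.02. Of 30 tested regulators of the G1 to S transition 0 were called (median 0.06). Among these the D-type cyclin gene Ccnd2 measured 546, 632 and 547 CPM in the young and 440.1, 412 and 569.6 CPM in the aged libraries, and the cyclin D kinase gene Cdk4 had a log2 fold change of 0.04. The remaining gene of the list, Cdkn2a, did not pass the filter on low counts.

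**Figure D4:**
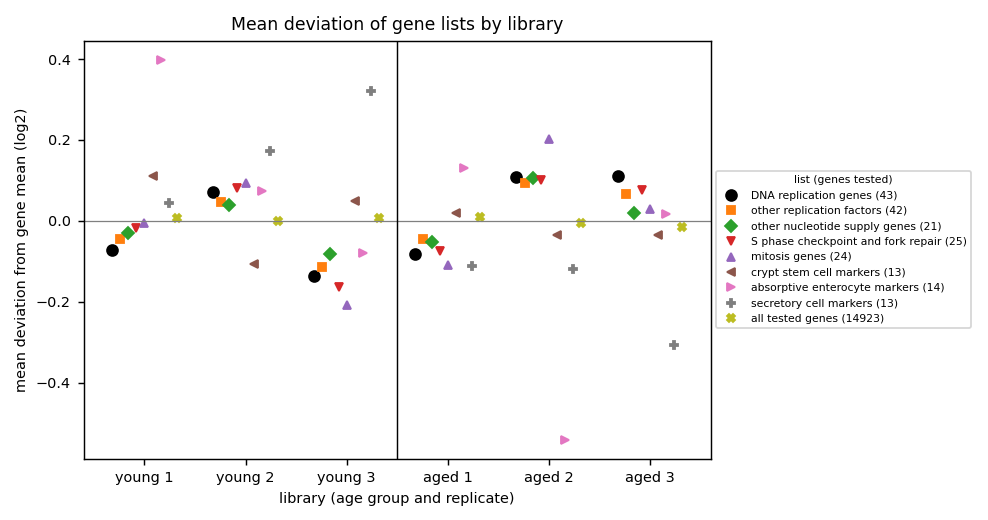
Mean deviation of log2 CPM from the gene mean (vertical axis) in each library for the replication genes and 8 other lists, with the number of genes tested in brackets. The division-related lists are low in young replicate 3 and aged replicate 1 and high in young replicate 2 and aged replicate 2, while all tested genes stay near 0.

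Mitosis genes followed the libraries in a similar order. Their mean deviations were -0.0044, 0.09 and -0.21 in the young and -0.11, 0.20 and 0.03 in the aged libraries, with aged replicate 2 the highest, whereas aged replicates 2 and 3 were level for the replication genes. Of 24 mitosis genes 0 were called, and the median log2 fold change was 0.08. Mki67, the common marker of dividing cells, measured 570.3, 623 and 438 CPM in the young and 537, 639 and 654 CPM in the aged libraries. Top2a, which untangles sister DNA, measured 310.1, 369 and 254 CPM in the young and 322, 427 and 362 CPM in the aged libraries. The crypt stem cell markers ran differently, at 0.11, -0.11 and 0.05 in the young and 0.02, -0.03 and -0.03 in the aged libraries, with 0 of 13 called. Their most abundant members, Olfm4 and the Wnt target Axin2, had log2 fold changes of -0.11 and 0.05.

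Markers of differentiated cells were measured beside these lists. The 14 absorptive enterocyte markers deviated by 0.40, 0.07 and -0.08 in the young and 0.13, -0.54 and 0.02 in the aged libraries, so that aged replicate 2, high for replication and mitosis genes, was the lowest for enterocyte genes. None was called, 9 of the 14 had log2 fold changes below 0, and the median was -0.13. The most abundant, the brush border genes Vil1 and Anpep, had log2 fold changes of 0.01 and 0.18. In 3 of the 14 every aged library lay below every young one, against 7.49% of all tested genes. These were the sucrase gene Sis, with a log2 fold change of -0.49, and the glucose transporter genes Slc5a1 and Slc2a2, at -0.31 and -0.66 (edgeR adjusted p = 0.197, 0.412 and 0.309). The lactase gene Lct had the lowest value, -1.09, with groups that overlapped (edgeR adjusted p = 0.578). The last 4 genes were singled out after their values were seen. The 13 secretory cell markers deviated by 0.04, 0.17 and 0.32 in the young and -0.11, -0.12 and -0.31 in the aged libraries, and all aged libraries lay below all young ones. Log2 fold changes were below 0 for 11 of the 13, with a median of -0.40. Of these 1 was called, Tff3 of goblet cells, which fell from 1755 ± 307 to 1105 ± 114 CPM (SD, n = 3 each, edgeR adjusted p = 0.0498). This call was lost in 5 of the 6 fits that leave out 1 library (adjusted p up to 0.171). The part of cell composition in the values of the replication genes was not tested.

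The size of the difference depended on single libraries, although the median stayed above 0 in each fit. The median log2 fold change of 0.08 became 0.14 when young replicate 2 was left out, and also when aged replicate 1 was, where all 43 genes lay above 0. It became 0.04 on omission of young replicate 3, with 28 genes above 0, and on omission of aged replicate 3, with 33 above 0. The sign held in every fit without 1 library for 23 of the 43 genes. Genes with an unadjusted p below 0.05 numbered 10 with young replicate 2 left out, 5 with aged replicate 1 left out, 1 with young replicate 3 left out and 0 in each of the other 3 such fits. No fit called a replication gene.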

How the data were processed

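Per the labels' protocols, stranded libraries were made from the poly(A) RNA of sorted epithelium, 6 in all. The authors deposited raw gene counts without normalisation, as seen from whole numbers with unequal totals. Among the builds and tools in the submitters' processing notes are GRCm38, STAR and featureCounts 1.6.4, without order or role. Neither annotation release nor strand setting is stated in those sources. Columns were matched to samples by the library name in the titles. No library pair of 1 group agreed within sampling noise (chi-square per gene at least 25.0).

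Genes were kept by filterByExpr (minimum count 10) and scaled by TMM. The test was the quasi-likelihood test of edgeR 4.0.16 with robust estimation (R 4.3.3) over all 14923 genes and 6 libraries, with age as the term and Benjamini-Hochberg adjustment at 0.05. The standard error is the log2 fold change over the square root of F, and 95% intervals use the fitted degrees of freedom. Deviations use log2(CPM + 0.5). Positions and exon lengths are from GENCODE M21. The code was tested on simulated data.

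Named members were Mcm2, Pcna, E2f1, Ccne1 and Slbp, any member called or without overlap of the ages (none was), and in each role group the gene with the largest difference and that with the highest level per length. Of other lists, called genes or else the 2 most abundant were named, except 1 gene that is not reported here. Other members are given by values without selection on a test. The members and all lists were chosen with earlier results of these data known. Alternatives were DESeq2 1.42.0, limma-voom (3.58.1), other scaling, other filters, non-robust estimation and leaving out each library. P-values set the difference between the ages against the spread between libraries of the same age.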

Additional observations from a re-analysis of the deposited data

How the results depend on the processing

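No alternative called a replication gene, and with all 6 libraries the median log2 fold change of the 43 genes lay between 0.06 (upper quartile scaling) and 0.08 (no filter, limma-voom). Leaving out 1 library moved it between 0.04 and 0.14. The lowest adjusted p of any member was 0.0848, for Rrm2 without young replicate 2. Of 15 members named by rule, 7 changed the sign of their log2 fold change in at least 1 alternative, and 6 of these did so only without 1 library. Over all genes, 93 were higher and 117 lower in aged mice. These counts were 168 and 245 without a filter, 206 and 276 with DESeq2, and 67 lower with the filter of 1 CPM in 3 libraries. Leaving out 1 library gave 35 to 135 higher and 30 to 135 lower genes. The higher and lower counts were 43 and 66 with young replicate 1 left out, 45 and 66 with young replicate 3 left out, 37 and 30 with aged replicate 1 left out, and 35 and 37 with aged replicate 2 left out. The same counts were 82 and 132 with young replicate 2 left out, and 135 and 135 with aged replicate 3 left out. Each fit without 1 library also has fewer samples, and the causes of these changes were not tested. No paired analysis was possible because the labels carry no replicate numbers. The number of libraries, 3 per age, limits the precision.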

Other observations

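Outside the 43 genes, a few genes of the pathway lists had an unadjusted p below 0.05 in edgeR without passing the adjusted threshold. These were 2 of 42 other replication factors and 2 of 21 further nucleotide supply genes. Of the G1 to S regulators they were 3 of 30, and of the checkpoint and fork repair genes 0 of 25. Of all tested genes, 9.23% had such a p. Age groups did not overlap in 4, 1, 2 and 0 genes of these lists, against 13.8% of all tested genes. The genes named here were singled out after their values were seen. Ccnd1, the cyclin that acts ahead of cyclin E in the retinoblastoma pathway, measured 145, 209 and 139 CPM in the young and 231, 316 and 245 CPM in the aged libraries. Its groups did not overlap, the log2 fold change was 0.69, and it missed the threshold (edgeR adjusted p = 0.148). Shmt2, the mitochondrial serine enzyme that feeds one-carbon units to nucleotide synthesis, measured 128, 152 and 129 CPM in the young and 172, 189 and 155 CPM in the aged libraries, also without overlap (edgeR adjusted p = 0.192). Chaf1b, a subunit of the assembly factor that places histones behind the fork, had a log2 fold change of 0.20, and Clspn, which links the fork to the checkpoint, of 0.29 (edgeR adjusted p = 0.493 and 0.441). E2f5, a repressive E2F factor, measured 17.1, 15.9 and 15.6 CPM in the young and 14.2, 13.7 and 13.6 CPM in the aged libraries, with every aged library below every young one (edgeR adjusted p = 0.482). Cad, the enzyme that opens pyrimidine synthesis, had a log2 fold change of 0.29, and Cdkn1c, an inhibitor of cyclin-dependent kinases, of -0.35, both with groups that overlapped (edgeR adjusted p = 0.447 and 0.449).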
